A study of Saccharomyces cerevisiae with 4 samples.

Results

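The nuclear tRNA genes of budding yeast were examined in 4 ChIP-exo libraries. Members were all nuclear genes of biotype tRNA in the gene table of the R64 assembly, each with 200 bp on both sides, and the genes of chromosome XI were left out because positions there did not line up with the table. This left 259 of the 275 nuclear tRNA genes, out of 6431 nuclear genes in the table. Apart from that chromosome, which was dropped for the placement of its measured positions, the biotype alone chose the members.

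A tRNA gene is a short transcription unit of RNA polymerase III whose promoter lies inside the gene. TFIIIC binds the internal A and B boxes and places TFIIIB, the initiation factor that recruits the polymerase, just upstream of the start, and transcription ends at a run of T downstream of the gene. In yeast, tRNA genes are among the most heavily transcribed stretches of the genome, they occur in families of near-identical copies, and they often appear in pull-downs of unrelated proteins.

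The TAP-tagged proteins were Xrn1, the 5′ to 3′ exonuclease of mRNA decay that in yeast also degrades some hypomodified tRNAs, Dcp2, which removes the mRNA cap, and Lsm1, part of the cytoplasmic Lsm ring that promotes decapping of deadenylated mRNA. The strains had the genotype XRN1-TAP, DCP2-TAP or LSM1-TAP, or had no TAP tag, all in the background yMC458, and all cultures grew in YPD, a rich glucose medium. The protein A part of the tag binds the IgG beads used for the pull-down, and untagged cells went through the same pull-down. With a single library for each strain, differences between them have no replicate check, no p-value is given, and every interval is an exact 95% interval for counting error alone. Positions cluster and PCR copies share a position, so the intervals are too narrow.

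The Xrn1-TAP library held 158105 tags at 18481 distinct positions (a coordinate and strand counted once), Dcp2-TAP 357674 tags at 44955 positions, Lsm1-TAP 211236 tags at 25342 positions and no-TAP 33412 tags at 4743 positions. Outside chromosome XI and the ribosomal DNA this came to 1.42, 3.48, 1.92 and 0.363 positions per kb, so an even spread would give a tRNA window of median length, 473 bp, fewer than 1 position in Xrn1-TAP, Lsm1-TAP and no-TAP. The control is the shallowest library and limits every comparison with it. On 13 of the 15 chromosomes used, positions around tRNA genes were centred within 20 bp of the table.

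The first question was whether the windows hold more positions than an even spread, and in which of their parts. Gene bodies stood out in all 4 libraries, the untagged strain included. Bodies held 242 positions with Xrn1-TAP, 475 with Dcp2-TAP, 281 with Lsm1-TAP and 45 with no-TAP. These counts were 8.28 times (7.27 to 9.39), 6.61 times (6.03 to 7.24), 7.09 times (6.29 to 7.97) and 6.00 times (4.38 to 8.03) an even spread of each library's own positions. Per base, bodies were 3.73, 2.71, 3.08 and 2.85 times as dense as the 200 bp upstream, with the libraries in the same order. Counted in tags the body folds were far smaller, at 3.62, 2.88, 2.98 and 2.86. A body position carried 3.76 tags on average with Xrn1-TAP, 3.48 with Dcp2-TAP, 3.53 with Lsm1-TAP and 3.40 with no-TAP. Positions outside the tRNA windows carried 8.70, 8.07, 8.49 and 7.19 tags.

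**Figure D1:**
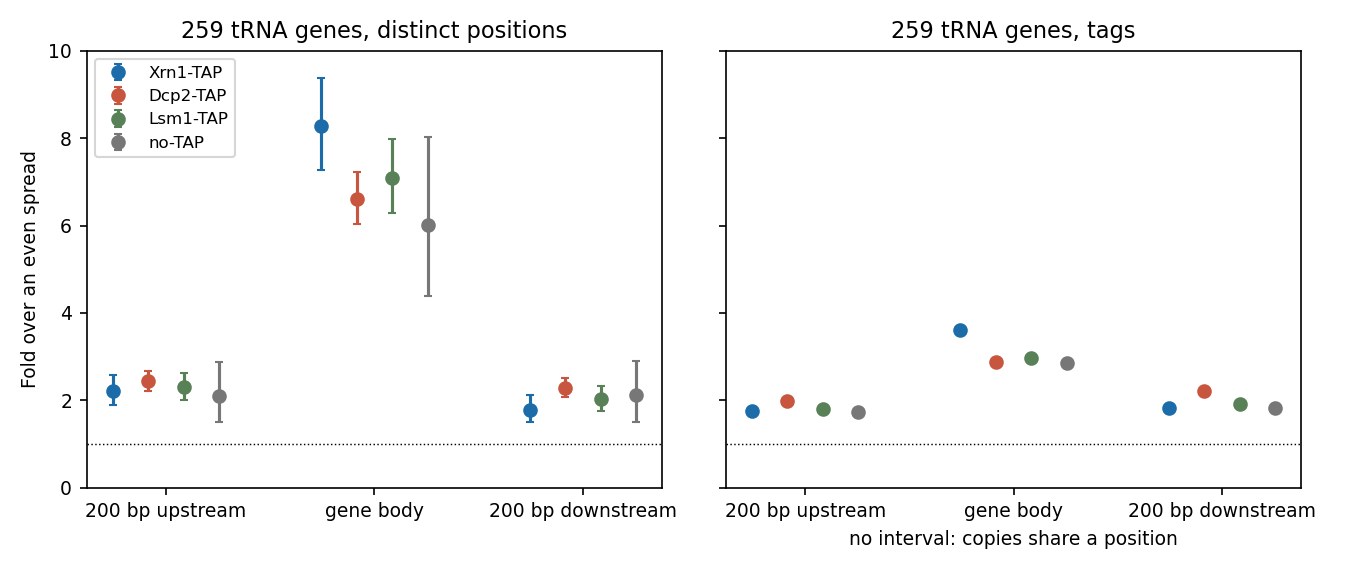
Fold over an even spread (y axis) in the 200 bp upstream, the body and the 200 bp downstream of 259 tRNA genes, for distinct positions (left) and tags (right), with 1 point per library and 95% Poisson intervals on positions. Bodies lie between 6.00 and 8.28 by positions but between 2.86 and 3.62 by tags, and the no-TAP interval overlaps that of each TAP library.

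The upstream side is where TFIIIB sits. It held 160 positions with Xrn1-TAP, 432 with Dcp2-TAP, 225 with Lsm1-TAP and 39 with no-TAP, which were 2.22 (1.89 to 2.59), 2.44 (2.21 to 2.68), 2.30 (2.01 to 2.62) and 2.11 (1.5 to 2.88) times an even spread. The downstream side, which includes the terminator, held 128, 401, 196 and 39 positions in the same libraries, or 1.79 (1.5 to 2.13), 2.29 (2.07 to 2.52), 2.03 (1.75 to 2.33) and 2.13 (1.51 to 2.91) times an even spread. Both flanks were thus above an even spread in every library, and by similar amounts. The upstream density was 1.24 times (0.974 to 1.57) the downstream density in Xrn1-TAP, 1.07 times (0.928 to 1.22) in Dcp2-TAP, 1.14 times (0.934 to 1.38) in Lsm1-TAP and 0.989 times (0.618 to 1.58) in no-TAP. All 4 intervals held 1.

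The balance of the flanks changed with the genes that were kept. Without the 5 fullest genes the ratio was 1.40 (1.08 to 1.82) in Xrn1-TAP, 1.21 (1.04 to 1.40) in Dcp2-TAP, 1.28 (1.04 to 1.58) in Lsm1-TAP and 1.02 (0.621 to 1.67) in no-TAP, so the 3 TAP intervals then lay above 1. In the 137 genes whose window met no other RNA gene and no 300 bp upstream of a coding region, it was 0.961, 0.882, 0.875 and 0.707, with every interval holding 1. These genes still included YNCE0010W, EMT2, YNCD0021C and SUF1, with 24, 15, 12 and 18 downstream positions in Dcp2-TAP. The part of neighbours was not tested apart from such full genes. In the same order of libraries, this ratio was 1.46, 1.54, 1.36 and 1.49 for coding genes and 3.11, 3.56, 3.40 and 8.41 for snoRNA genes. In snoRNA genes, which are mostly transcribed by RNA polymerase II from an upstream promoter, the upstream side had 11.5, 12.8, 8.78 and 12.9 times an even spread and the body 3.44, 3.83, 2.90 and 3.84 times. The tRNA genes had the opposite order, with the body densest. Upstream of tRNA genes the fold was 1.00 times that of coding genes in Xrn1-TAP, 1.02 in Dcp2-TAP, 1.15 (1.00 to 1.32) in Lsm1-TAP and 0.920 in no-TAP. Downstream it was 1.18 (0.981 to 1.42), 1.48 (1.33 to 1.63), 1.38 (1.19 to 1.60) and 1.38 (0.971 to 1.92) times. The downstream intervals of Dcp2-TAP and Lsm1-TAP thus lay above 1.

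Within the flanks, the fold was higher next to the gene, except upstream in no-TAP. In the 40 bp next to the start the fold was 2.97 with Xrn1-TAP, 3.74 with Dcp2-TAP, 4.49 with Lsm1-TAP and 1.89 with no-TAP, the last from 7 positions. From 41 to 200 bp upstream it was 2.03, 2.11, 1.75 and 2.16. The 40 bp past the gene end gave 2.70, 3.72, 3.78 and 4.32, against 1.56, 1.92, 1.58 and 1.57 farther downstream. In Dcp2-TAP and Lsm1-TAP the near and far intervals did not overlap on either side. In Xrn1-TAP they overlapped on the upstream and the downstream side, and in no-TAP on the upstream side.

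The second question was how the strands divide within the gene, since the strands mark the borders of what was crosslinked. Each body was split at its midpoint into a 5′ side and a 3′ side. On the 5′ side, 73.8% of positions lay on the sense strand with Xrn1-TAP, 81.9% with Dcp2-TAP, 77.3% with Lsm1-TAP and 71.4% with no-TAP. On the 3′ side the sense share was 24.5%, 27.0%, 39.0% and 20.8%. A sense tag on the 5′ side and an antisense tag on the 3′ side both run into the body, and they are called inward here. Tags that run toward the nearer edge and out of the gene are called outward. Inward positions numbered 181 of 242 in Xrn1-TAP, 368 of 475 in Dcp2-TAP, 200 of 281 in Lsm1-TAP and 34 of 45 in no-TAP. That was 74.8% (68.8 to 80.1), 77.5% (73.4 to 81.2), 71.2% (65.5 to 76.4) and 75.6% (60.5 to 87.1), and the interval of untagged cells overlapped that of each tagged strain. In snoRNA gene bodies the inward share of positions was 39.7%, 44.8%, 37.5% and 11.1%, the last from 2 inward and 16 outward positions.

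The inward positions differed from the outward ones in the tags they carried. Inward positions held 2.72 tags on average with Xrn1-TAP, 2.57 with Dcp2-TAP, 2.41 with Lsm1-TAP and 2.29 with no-TAP. Outward positions of the same bodies held 6.85, 6.62, 6.31 and 6.82 tags. Of body positions with at least 5 tags, 33 faced inward and 28 outward in Xrn1-TAP, 49 and 53 in Dcp2-TAP, 18 and 31 in Lsm1-TAP, and 3 and 7 in no-TAP. Of those with a single tag, 65 faced inward and 17 outward in Xrn1-TAP, 154 and 26 in Dcp2-TAP, 91 and 22 in Lsm1-TAP, and 11 and 2 in no-TAP. Counted in tags the inward share was 54.1%, 57.2%, 48.5% and 51.0%, close to an even division. The strand pattern of the bodies was therefore one of positions with few tags.

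The body fold in positions was highest for the inward positions. Inward positions of Xrn1-TAP stood at 12.4 (10.6 to 14.3), those of Dcp2-TAP at 10.2 (9.23 to 11.4), those of Lsm1-TAP at 10.1 (8.75 to 11.6) and those of no-TAP at 9.07 (6.28 to 12.7) times an even spread. Outward positions stood at 4.17 (3.19 to 5.36), 2.98 (2.44 to 3.60), 4.09 (3.25 to 5.08) and 2.93 (1.47 to 5.25) times. In tags, the inward folds were 3.91, 3.29, 2.89 and 2.92 and the outward folds 3.32, 2.47, 3.07 and 2.81. Bodies thus remained above an even spread by either count and in either direction. How the authors placed tags that match several gene copies is not given in the sources used here, and its part in the inward positions was not tested. For the same reason, counts in the body of any single gene that has near-identical copies are uncertain.

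**Figure D2:**
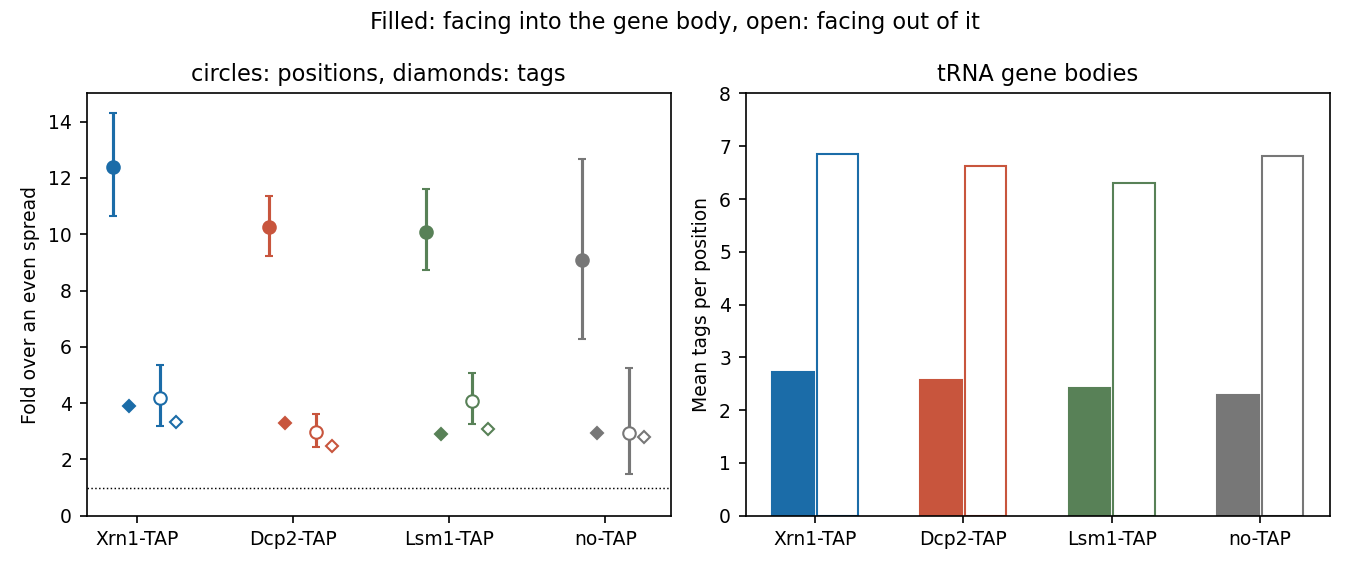
Left, fold over an even spread (y axis) of body positions (circles, 95% Poisson intervals) and tags (diamonds) facing into the gene (filled) or out of it (open). Right, mean tags per body position (y axis) for the same directions. In each of the 4 libraries inward positions are more numerous, between 9.07 and 12.4 times an even spread, and carry fewer tags, between 2.29 and 2.72 on average.

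The change in tags per position lay near the gene edges. In the 180 genes of 71 to 74 bp, sense positions in the last 20 bp before the start held 12.3 tags on average in Xrn1-TAP (15 positions), 6.79 in Dcp2-TAP (48) and 7.78 in Lsm1-TAP (23). In the first 20 bp of the gene they held 2.14 (22 positions), 2.37 (76) and 2.39 (67) in the same libraries. Antisense positions 60 to 79 bp from the start held 2.16 tags with Xrn1-TAP, 2.64 with Dcp2-TAP and 2.50 with Lsm1-TAP, and those 80 to 99 bp from the start, past the gene end, held 6.71, 9.30 and 6.71. The 60 to 79 bp bin crosses the gene end, and 19, 49 and 33 of its antisense positions lay at 70 to 79 bp. On the 3′ side the change can therefore lie past the gene end. The no-TAP library had 2 sense positions in the 20 bp before the start, with 29 tags, and 11 in the first 20 bp of the gene, with 22 tags. In the flanks themselves the strands also differed near the gene, with 67.4%, 70.7%, 63.6% and 57.1% of positions on the sense strand in the 40 bp upstream and 41%, 29.5%, 28.4% and 25% in the 40 bp downstream, no-TAP being the last value of each. There too most positions faced the gene.

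**Figure D3:**
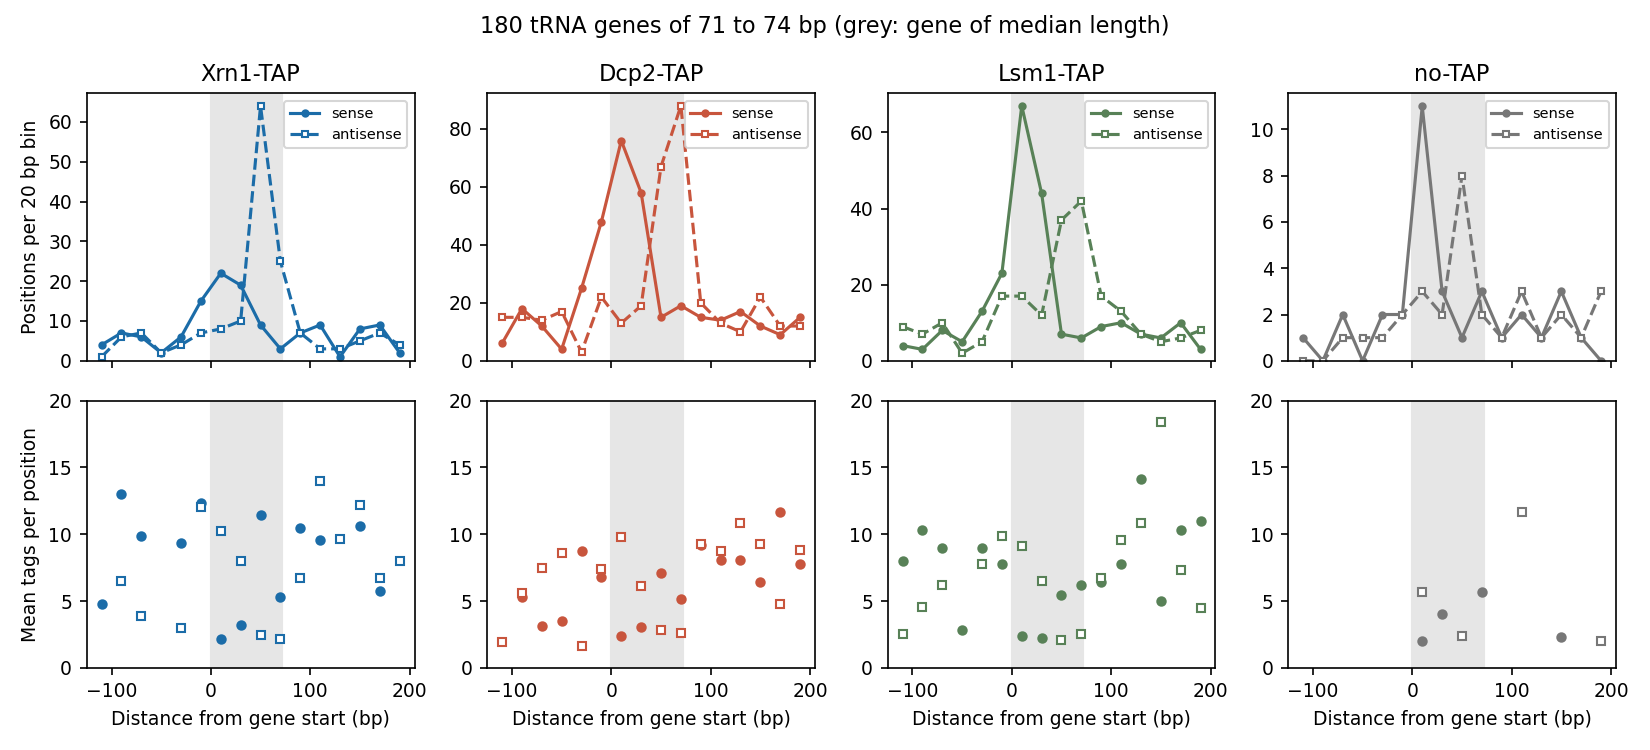
Positions per 20 bp bin (upper row) and mean tags per position (lower row, bins with at least 3 positions) against distance from the gene start in bp, by strand, over 180 tRNA genes of 71 to 74 bp. Sense positions pile up at the start and antisense positions toward the end of the gene (grey) in each library, and the bins with most positions hold between 2.00 and 2.64 tags per position.

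The libraries differed in which end of the body held more positions. Xrn1-TAP had 103 positions on the 5′ side and 139 on the 3′ side, a ratio of 0.741 (0.569 to 0.963). Dcp2-TAP had 238 and 237, a ratio of 1.00 (0.835 to 1.21). Lsm1-TAP had 176 and 105, a ratio of 1.68 (1.31 to 2.16), and no-TAP had 21 and 24, a ratio of 0.875 (0.463 to 1.64). By this count Xrn1-TAP bodies were weighted toward the 3′ side and Lsm1-TAP bodies toward the 5′ side. The odds of lying on the 5′ side were 0.443 times (0.306 to 0.638) as high in Xrn1-TAP as in Lsm1-TAP and 0.600 times (0.438 to 0.819) as high in Dcp2-TAP as in Lsm1-TAP. Against no-TAP they were 1.91 times as high in Lsm1-TAP (0.967 to 3.81) and 0.847 times in Xrn1-TAP (0.426 to 1.70), both intervals holding 1. For inward positions alone, a direction defined after seeing the data, the odds in Lsm1-TAP were 2.68 times (1.20 to 6.07) those in no-TAP. By tags over both strands they were 2.91 times (2.03 to 4.19). Tags repeat at a position, and the 153 body tags of no-TAP came from 45 positions, so the tag intervals here are too narrow. In tags the ratio of the 5′ to the 3′ side was 0.896 (0.785 to 1.02) with Xrn1-TAP, 1.21 (1.10 to 1.33) with Dcp2-TAP, 2.04 (1.78 to 2.33) with Lsm1-TAP and 0.700 (0.499 to 0.977) with no-TAP. The interval of Xrn1-TAP then held 1, as it did when thinned to the tag total of no-TAP, at 0.981 (0.653 to 1.47). The thinned odds ratios to Lsm1-TAP, 0.630 (0.349 to 1.13) for Xrn1-TAP and 0.828 (0.463 to 1.48) for Dcp2-TAP, held 1 as well. The direction turned in Xrn1-TAP and in Lsm1-TAP when the gene table was moved by 30 bp either way, so the split holds only as far as the placement does.

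Counted from the gene start, the fullest 20 bp bins were the same in the libraries on the sense strand and differed on the antisense strand. In all 4 libraries the fullest sense bin was the first 20 bp of the gene, with 36 positions with Xrn1-TAP, 107 with Dcp2-TAP, 86 with Lsm1-TAP and 12 with no-TAP. The fullest antisense bin was 40 to 59 bp from the start in Xrn1-TAP (71 positions) and no-TAP (14), and 60 to 79 bp in Dcp2-TAP (109) and Lsm1-TAP (43). It thus lay nearer the start in Xrn1-TAP than in Lsm1-TAP. In the genes of 71 to 74 bp, 40 to 59 bp lies on the 3′ side of the body, while 60 to 79 bp crosses the gene end. Of the 42 antisense positions of Lsm1-TAP in that bin of these genes, 33 lay at 70 to 79 bp. Positions past the gene end do not enter the 5′ to 3′ ratios. Counted from the gene end, the fullest antisense bin was 0 to 19 bp onward in Dcp2-TAP (85) and Lsm1-TAP (42), mostly outside the body. In Xrn1-TAP it was 21 to 40 bp before the end (59). On the sense strand the fullest bin counted from the end also differed. It ran from -80 to -61 bp in Xrn1-TAP (46), and from -60 to -41 bp in Dcp2-TAP (113), Lsm1-TAP (83) and no-TAP (7). Over the whole body the sense share was 45.5% (39.1 to 52.0) in Xrn1-TAP, 54.5% (49.9 to 59.1) in Dcp2-TAP, 63.0% (57.1 to 68.6) in Lsm1-TAP and 44.4% (29.6 to 60) in no-TAP. The odds of a sense position were 2.12 times (1.07 to 4.25) as high in Lsm1-TAP as in no-TAP. By tags it was 51.6%, 50.0%, 50.7% and 54.9%, so this difference too was one of positions with few tags.

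The third question was whether a TAP library holds a larger share of its positions at tRNA genes than untagged cells do. Counted in positions at full depth, no TAP library differed from no-TAP beyond counting error in any of the 3 parts of the window. Relative to no-TAP, the share of positions in bodies was 1.38 times in Xrn1-TAP (0.999 to 1.94), 1.10 times in Dcp2-TAP (0.811 to 1.53) and 1.18 times in Lsm1-TAP (0.860 to 1.66). The upstream ratios were 1.05, 1.16 and 1.09 and the downstream ratios 0.841, 1.07 and 0.951. By tags the body ratios to no-TAP were 1.26 (1.06 to 1.51) in Xrn1-TAP, 1.00 (0.851 to 1.19) in Dcp2-TAP and 1.04 (0.877 to 1.24) in Lsm1-TAP, and the downstream ratios 0.999, 1.20 (1.06 to 1.38) and 1.05. The intervals of the Xrn1-TAP body and the Dcp2-TAP downstream side thus excluded 1 by tags, which repeat at a position. Thinned to the tag total of no-TAP, the ratios of body shares became 0.907 (0.633 to 1.32) in Xrn1-TAP, 0.579 (0.406 to 0.839) in Dcp2-TAP and 0.770 (0.538 to 1.12) in Lsm1-TAP. Thinning thus moved all 3 body ratios to below 1, and in Dcp2-TAP the interval then excluded 1. Only the TAP libraries were thinned, and body positions, which carry few tags, are lost more often than others. The thinned ratios therefore cannot show a lower body share than in untagged cells.

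Between TAP libraries, Xrn1-TAP had 1.25 times the body share of Dcp2-TAP (1.07 to 1.46) and 0.784 times its downstream share (0.637 to 0.959). For body positions facing outward the ratio of Xrn1-TAP to Dcp2-TAP was 1.40 (1.01 to 1.94), and by tags over the whole body it was 1.26. Dcp2-TAP had 0.729 times the outward share of Lsm1-TAP (0.541 to 0.985). Xrn1-TAP had 1.17 times the body share of Lsm1-TAP (0.978 to 1.39), an interval that holds 1. Few positions were identical in coordinate and strand between libraries. In bodies, 17 were shared by Xrn1-TAP and Dcp2-TAP (7.02% of the positions of Xrn1-TAP and 3.58% of those of Dcp2-TAP), 16 by Xrn1-TAP and Lsm1-TAP (6.61% and 5.69%), 7 by Dcp2-TAP and Lsm1-TAP (1.47% and 2.49%), and 0 of the 45 no-TAP positions with any TAP library, which allows up to 7.87%. Outside the tRNA windows the shares were 2.12% and 0.861% for Xrn1-TAP with Dcp2-TAP, 1.07% and 0.792% for Xrn1-TAP with Lsm1-TAP and 0.966% and 1.75% for Dcp2-TAP with Lsm1-TAP.

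Single genes were then examined. A window was called where it held at least 2 positions and at least 4 times an even spread, which took 3 positions with Xrn1-TAP, 7 with Dcp2-TAP, 4 with Lsm1-TAP and 2 with no-TAP for the median window. This rule called 84 of 259 windows (32.4%) with Xrn1-TAP, 64 (24.7%) with Dcp2-TAP, 71 (27.4%) with Lsm1-TAP and 24 (9.27%) with no-TAP. Over 24024 consecutive windows of the same length along the genome, the same rule called 6.08%, 4.29%, 4.95% and 2.31% in these libraries. Over 5666 coding genes with a window centred on the start codon it called 10.2%, 7.06%, 7.71% and 4.43%. Called windows were thus more frequent among tRNA genes than in either background in each library, though the limit differs between libraries with their depth. By tags the same limits called 40, 36, 38 and 43 tRNA windows, or 15.4%, 13.9%, 14.7% and 16.6%, against 7.18%, 4.39%, 6.34% and 7.79% of genome windows. The no-TAP library was highest in both. In Xrn1-TAP, 39 windows sat at the limit with 3 positions and 59 just below it with 2, and in Lsm1-TAP 28 sat at 4 and 49 at 3.

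All 3 TAP libraries called 16 tRNA windows (6.18%), against 1.91% of consecutive genome windows and 3.35% of coding genes. At least 1 TAP library called 146 (56.4%), against 9.41% and 15.2%. Of the windows that any TAP library called, 11% were thus called by all 3 among tRNA genes, against 20.3% among genome windows and 22.1% among coding genes. All 4 libraries called 4 tRNA windows (1.54%), against 0.841% and 1.68%, and no library called 104 (40.2%), against 89.8% and 83.4%. A position anywhere in the window was found in 204 genes with Xrn1-TAP, 252 with Dcp2-TAP, 240 with Lsm1-TAP and 91 with no-TAP, and a position in the body for 144, 202, 176 and 42. Body positions in all 3 TAP libraries were found for 98 genes and body positions in no library for 14. These counts of genes with a position are given without a background share. Dcp2-TAP had a median of 4 positions per window and up to 44, Xrn1-TAP and Lsm1-TAP a median of 2 and up to 13 and 16, and no-TAP a median of 0 and up to 4. One gene, YNCC0008W, had 0 positions in all 4 libraries, where an even spread of the positions of Dcp2-TAP would give 1.64.

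The 5 genes that ranked highest over the TAP libraries held more positions in Dcp2-TAP on a flank than in the body. YNCE0010W had 12 positions with Xrn1-TAP, 44 with Dcp2-TAP, 16 with Lsm1-TAP and 4 with no-TAP, the highest count of all tRNA genes in Dcp2-TAP and Lsm1-TAP and, shared with 2 other genes, also in no-TAP. Of these, 6, 24, 9 and 1 lay downstream, where the window reaches GCN4, the gene of the activator of amino acid biosynthesis genes. Its body held 2, 12, 4 and 3. EMT2, an elongator methionine tRNA gene, had 13 positions with Xrn1-TAP, 27 with Dcp2-TAP, 8 with Lsm1-TAP and 1 with no-TAP, and 8, 15, 4 and 0 of them lay downstream, on the side of TYE7, a transcriptional activator gene of glycolysis. Both genes were named for a high rank in all 3 TAP libraries, so that rank is not a separate result.

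SUF1, a glycine tRNA gene known for its frameshift suppressor alleles, had 12 positions with Xrn1-TAP, 23 with Dcp2-TAP, 7 with Lsm1-TAP and 1 with no-TAP, with 6, 18, 6 and 1 downstream, toward ZEO1. YNCD0021C had 8, 14, 10 and 2, with 4, 12, 7 and 2 downstream, toward MTH1, a gene of glucose-regulated transcription. YNCE0005W was full on the other side, with 5 positions with Xrn1-TAP, 22 with Dcp2-TAP, 8 with Lsm1-TAP and 4 with no-TAP, of which 4, 16, 3 and 3 lay upstream, where the window overlaps MTC7. YNCE0010W, YNCD0021C and YNCE0005W passed the call in all 4 libraries, and EMT2 and SUF1 in the 3 TAP libraries. The remaining genes of the 10 whose worst rank over the TAP libraries was best were YNCG0017W, YNCN0007W, YNCG0020C, YNCG0032W and YNCJ0014C, with 3 to 6 positions in Xrn1-TAP, 9 to 16 in Dcp2-TAP, 4 to 8 in Lsm1-TAP and 0 or 1 in no-TAP. YNCN0007W, with 6, 16, 5 and 1 positions, lies next to RPS7B, a ribosomal protein gene, and YNCJ0014C, with 3, 12, 5 and 0, adjoins another tRNA gene. Some of these were fuller in the body, with 10 of 12 positions of YNCJ0014C and 8 of 11 of YNCG0032W there in Dcp2-TAP, and 4 of 6 of YNCN0007W in Xrn1-TAP.

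**Figure D4:**
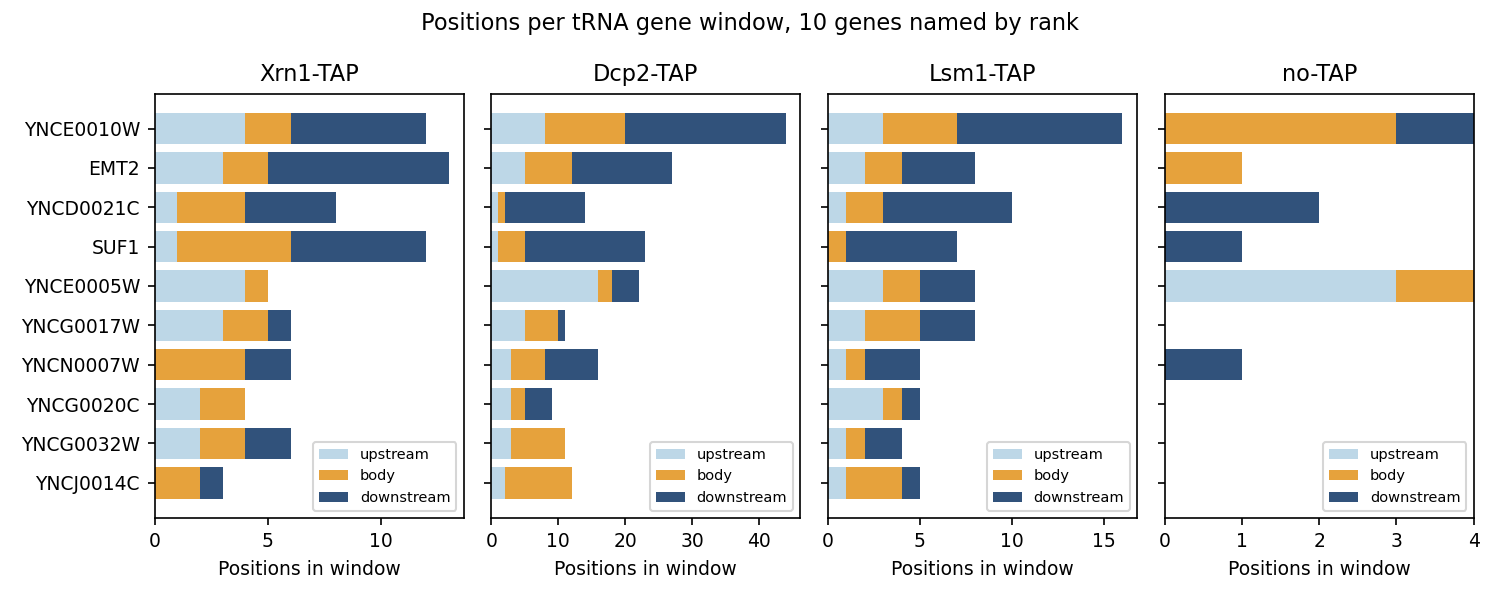
Positions in the window (x axis) of the 10 tRNA genes whose worst rank over the 3 TAP libraries was best, split into upstream, body and downstream, with 1 panel per library and its own scale. The downstream part leads in YNCE0010W, EMT2, YNCD0021C and SUF1 in Dcp2-TAP, and the upstream part in YNCE0005W with 16 of 22.

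Several genes were high in the untagged strain. YNCL0050C had 2 positions with Xrn1-TAP, 2 with Dcp2-TAP, 1 with Lsm1-TAP and 4 with no-TAP, so that only no-TAP called it. SUF16, a glycine tRNA gene whose window reaches the snoRNA gene SNR33, had 2, 12, 4 and 3. Among genes with 0 positions in no-TAP, the fullest in Xrn1-TAP were YNCN0008C with 7 positions, all upstream, YNCG0030C with 7, and YNCG0017W and YNCG0032W with 6 each. In Dcp2-TAP they were YNCB0005C with 14, YNCG0004W with 12 and YNCJ0014C with 12. In Lsm1-TAP they were YNCG0017W, YNCI0004W, YNCN0008C and YNCI0008C with 8 each. YNCI0004W had 0 positions in Xrn1-TAP against 8 in Dcp2-TAP. A count of 0 in no-TAP has an upper bound of 3.69 positions, which is more than its call limit of 2. None of these genes is thus shown to lack positions in untagged cells.

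The genes were grouped by amino acid where the symbol gives it, which held for 45 of the 259 genes. A group holds only the genes with such a symbol and need not be the whole family. In the ratios below, the other tRNA genes include those of unknown amino acid, some of which can belong to the same family. The ratios thus compare named genes with a mixed pool and are not contrasts between amino acids. The other 214 genes had on average 1.95 positions with Xrn1-TAP, 4.90 with Dcp2-TAP, 2.75 with Lsm1-TAP and 0.505 with no-TAP per window. The 5 elongator methionine genes, whose tRNA decodes internal methionine codons, had 4.20 positions per gene with Xrn1-TAP, 12.4 with Dcp2-TAP, 3 with Lsm1-TAP and 0.800 with no-TAP. Per base of window this was 2.09 times (1.28 to 3.23) the other tRNA genes in Xrn1-TAP, 2.52 times (1.92 to 3.25) in Dcp2-TAP, 1.11 times (0.616 to 1.84) in Lsm1-TAP and 1.70 times (0.456 to 4.47) in no-TAP. Without EMT2 the ratio was 0.995 (0.427 to 1.98) in Xrn1-TAP and 1.78 (1.23 to 2.49) in Dcp2-TAP. The excess in Xrn1-TAP thus lay in 1 gene, while in Dcp2-TAP the window ratio of the other members stayed above 1.

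Within this family, EMT1 had 8 positions in Dcp2-TAP, EMT3 had 6, EMT4 had 9 and EMT5 had 12, against 27 in EMT2. Their bodies held 5, 5, 7 and 5 positions, against 7 in EMT2, so the body counts were close to even over the family while the flanks were not. Their upstream sides held 3, 1, 2 and 1 positions and their downstream sides 0, 0, 0 and 6. In EMT1, EMT3 and EMT4 most positions thus lay in the body, where counts are uncertain for genes with near-identical copies. The flanks of the family without EMT2 were not compared with other tRNA genes. The 4 genes other than EMT2 had 2 positions each in Xrn1-TAP. The initiator methionine genes, whose tRNA starts translation, were at the other end. IMT1, IMT2, IMT3 and IMT4 had 5, 4, 0 and 0 positions in Dcp2-TAP, 2, 1, 0 and 1 in Xrn1-TAP, 2, 2, 1 and 0 in Lsm1-TAP and 0 each in no-TAP. Per base the group was at 0.441 times (0.201 to 0.840) the other tRNA genes in Dcp2-TAP, 0.484 times (0.132 to 1.25) in Xrn1-TAP and 0.457 times (0.148 to 1.07) in Lsm1-TAP. In all 4 bodies together there was 1 position, in IMT4 in Xrn1-TAP. By tags the windows of this group were at 0.932 times the others in Xrn1-TAP, 1.04 times in Dcp2-TAP and 0.444 times in Lsm1-TAP, so the lower level in Dcp2-TAP was one of positions. The value in Xrn1-TAP rested on IMT1, which held 39 tags, and was 0.166 without it.

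The 8 tyrosine genes, which carry an intron and are known for nonsense suppressor alleles, had 3.12 positions per gene with Xrn1-TAP, 5.25 with Dcp2-TAP, 3.25 with Lsm1-TAP and 0.250 with no-TAP. Their bodies held 20, 17, 11 and 0 positions. The body density was 2.52 times (1.51 to 3.99) that of the other tRNA genes in Xrn1-TAP, 1.04 times (0.601 to 1.68) in Dcp2-TAP and 1.14 times (0.563 to 2.08) in Lsm1-TAP. In Xrn1-TAP each of the 8 bodies held 2 or 3 positions, from SUP2, SUP3, SUP4 and SUP11 with 2 to SUP5, SUP6, SUP7 and SUP8 with 3. The antisense ones lay at bases 34, 36, 37, 40, 41, 42, 47 and 52 of the gene, each base in 1 gene. Lsm1-TAP had its antisense positions at the same bases, again each in 1 gene. The part of tags that match several copies was not tested, so the evenness over members and the body density are uncertain. By tags the windows of this group were at 0.908 times the others in Xrn1-TAP. The 9 glycine genes had 3.11, 7, 3.11 and 0.444 positions per gene in the same order of libraries, or 1.55 (1.02 to 2.27), 1.41 (1.07 to 1.81), 1.15 (0.761 to 1.68) and 0.934 (0.250 to 2.45) times the others. Without SUF1 all 4 intervals held 1, with ratios of 0.996, 1.00, 0.974 and 0.788.

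The proline, serine and leucine genes had whole-window ratios to the other tRNA genes whose intervals held 1 in each library, though some of their bodies held few positions. The 7 proline genes had 2.86 positions per gene with Xrn1-TAP, 3.86 with Dcp2-TAP, 1.71 with Lsm1-TAP and 0.429 with no-TAP, and their bodies held 6, 13, 1 and 2. The single body position in Lsm1-TAP put the body density at 0.109 times (0.00274 to 0.610) that of the other tRNA genes. TRN1 was the fullest of them, with 7, 3, 2 and 1 positions. The 4 serine genes had 1.25, 3.75, 1.5 and 0.250 positions per gene, with SUP19 at 2, 7, 0 and 0, and their bodies held 0, 3, 0 and 0. The body density of the serine genes had an upper bound of 0.899 times that of the other tRNA genes in Xrn1-TAP and 0.774 times in Lsm1-TAP. The 3 leucine genes had 1.33, 7.67, 3 and 0, with SUP53 at 2, 11, 3 and 0. Alanine, arginine, glutamate and glutamine had 1 or 2 genes with a telling symbol. TGA1, for alanine, had 1, 7, 4 and 0 positions, TRR4, for arginine, 2, 6, 0 and 0, SOE1, for glutamate, 1, 0, 5 and 0, and CDC65, for glutamine, 1, 3, 0 and 1.

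**Figure D5:**
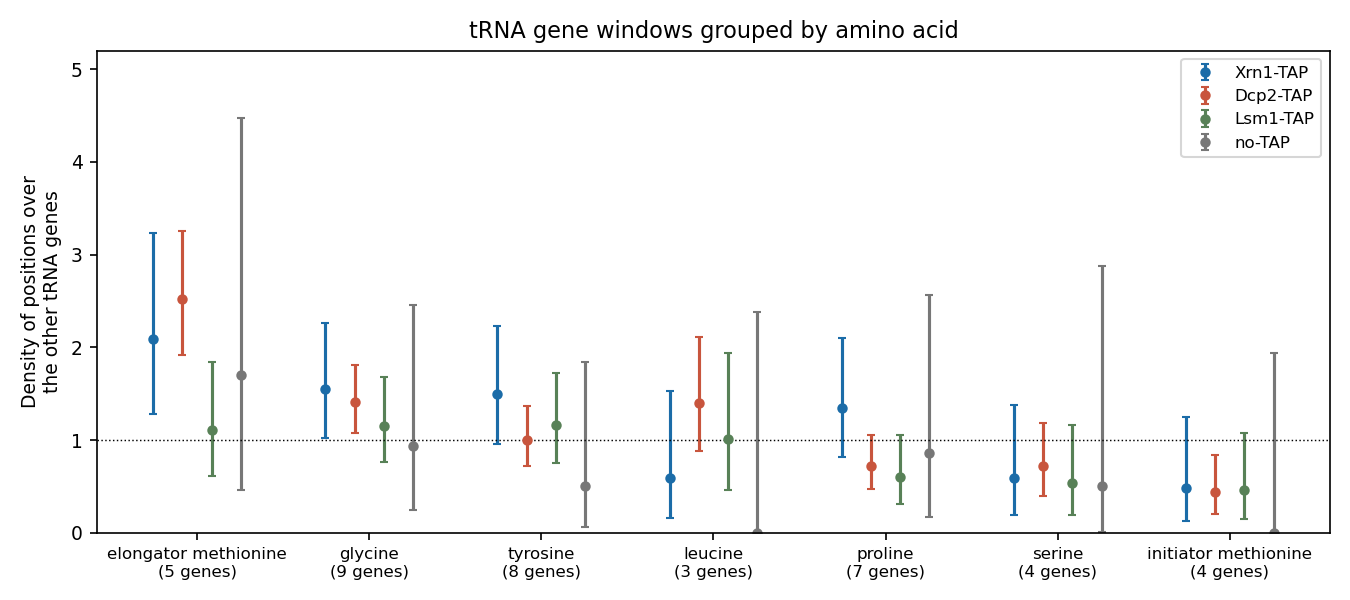
Density of positions per base of window (y axis) over that of the other tRNA genes for 7 groups named by amino acid, with 1 point per library and 95% conditional binomial intervals. Groups hold only genes whose symbol gives the amino acid, and the other genes can include members of the same family. Elongator methionine genes lie above 1 in Xrn1-TAP (2.09) and Dcp2-TAP (2.52), initiator methionine genes below 1 in Dcp2-TAP (0.441), and the no-TAP intervals hold 1 throughout.

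Genes were last compared by length, which in tRNA genes follows mostly from introns and long variable arms. The 180 genes of 71 to 74 bp had body folds of 7.95 with Xrn1-TAP, 7 with Dcp2-TAP, 8.06 with Lsm1-TAP and 6.33 with no-TAP. The 21 genes of 82 to 84 bp had 6.52, 5.47, 4.51 and 12.7, the last from 8 positions. The 58 genes of 89 bp or more had 9.52 (7.54 to 11.9), 6.08 (5.06 to 7.25), 5.69 (4.38 to 7.27) and 3.29 (1.32 to 6.78). Upstream of the 82 to 84 bp genes the fold reached 3.97 (3.02 to 5.14) in Dcp2-TAP, above the 2.32 (2.06 to 2.61) of the short genes. Of the 58 positions behind it, 16 lay in YNCE0005W alone, where the window overlaps MTC7. The part of this gene in the difference was not tested. The inward pattern was weaker in the long genes. On their 3′ side the sense share was 46.7% with Xrn1-TAP, 47.7% with Dcp2-TAP and 73.3% with Lsm1-TAP, against 11.1%, 19.9% and 18.8% in the short genes. On their 5′ side it was 67.6%, 72.9% and 58.8%, against 71.9%, 83.4% and 81.2%. No-TAP had 7 body positions in the long genes, too few to read a share.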

How the data were processed

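The authors deposited tag counts per coordinate and strand, per the file headers, with no normalization. Each count was read as tags whose 5′ end lies there, which no source states. Aligner, build, filters and the handling of duplicates or of tags that match several places were not given in the sources used here, nor whether each table sums the 2 replicates that the series text speaks of. Cells were fixed with 1% formaldehyde and DNA was trimmed with lambda and RecJf exonucleases, per the labels' protocols. The lowest coordinate is 0, so coordinates were counted from 0.

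The tRNA genes came from the R64 gene table. As no build is named, the table was shifted on each chromosome by up to 600 bp either way, 10 bp at a time, and the lag that put most positions in tRNA genes was taken. It was at most 20 bp on 13 of 15 chromosomes, the exceptions being I and XIV, and -370 bp on XI, which was left out. No coordinates or sequences are printed, as no genome was used here. Each base went to the body of a gene or to the flank of the nearest one, up to 200 bp away. The expected count was the library's total of positions times the share of 11366313 bp, which leaves out the ribosomal DNA (37684 bp). Folds have Poisson intervals, ratios conditional binomial intervals, shares Clopper-Pearson intervals and odds ratios exact conditional intervals. A count of 0 has an upper bound of 3.69. Methionine and other groups were read from 45 gene symbols, as the table gives no anticodons.

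Genes were named by these rules: the 10 whose worst rank over the TAP libraries was best, the 4 with most positions in no-TAP, for each TAP library the 3 fullest with 0 in no-TAP, those with 0 in all libraries, and the fullest of each amino acid. Genes tied with the last of the 3, and the remaining members of the methionine and tyrosine groups, were named after their values were seen. The members, groups and rules were chosen with earlier results of these data known. The split at the midpoint, the inward and outward directions, the 40 bp zones, the groups without their fullest gene, 2 chromosomes left out and merged positions were added after seeing the data. Procedures were tested on simulated positions. Python 3.11.15, numpy 2.4.6, pandas 2.3.3, scipy 1.17.1 and matplotlib 3.10.9 were used.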

Additional observations from a re-analysis of the deposited data

How the results depend on the processing

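Values were recomputed under up to 15 other settings, the fold limits of 3 and 6 for called windows alone and 9 of the settings for the amino acid groups. Of the settings, 2 (chromosomes I and XIV left out, positions within 10 bp merged) were chosen after seeing the data, as were the midpoint split and the directions. Every body fold stayed above 1 under each setting run. Of the 528 values of the leading results under other settings, 436 stayed within the interval, or for counts within 1.5 times, of the value reported, 76 moved outside it and 16 turned round. No paired analysis was possible because there is 1 library per group and the labels give no replicate numbers. The comparison of families by copy number and the setting restricted to names with 1 or several copies were not run, because the gene table gives no anticodons. Where no cause is named, the cause was not tested.

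Counted in tags, body folds were 3.62 with Xrn1-TAP, 2.88 with Dcp2-TAP, 2.98 with Lsm1-TAP and 2.86 with no-TAP, the outward fold in Lsm1-TAP 3.07, and the inward shares 54.1%, 57.2%, 48.5% and 51.0%. The sense share of Lsm1-TAP bodies was then 50.7%, with 49.4% on the 5′ side and 53.2% on the 3′ side (53.3% on the 3′ side in no-TAP), the 5′ to 3′ ratio in Dcp2-TAP 1.21, the called windows 40, 36, 38 and 43, and upstream over downstream 0.958 in Xrn1-TAP and 0.902 in Dcp2-TAP. With at least 2 tags per position, body folds were 5.41 in Dcp2-TAP and 5.80 in Lsm1-TAP, their inward shares 72.5% and 64.9%, and upstream over downstream 0.902 in Xrn1-TAP and 0.891 in Dcp2-TAP.

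Thinned to the no-TAP tag total, body folds were 5.44 with Xrn1-TAP, 3.48 with Dcp2-TAP and 4.63 with Lsm1-TAP and inward shares 66.0%, 60% and 61.0%. Positions with few tags are lost most often by thinning, and no-TAP itself was left as it was. Body shares were then 0.907, 0.579 and 0.770 times that of no-TAP, Xrn1-TAP over Dcp2-TAP 1.56 and Dcp2-TAP over Lsm1-TAP 0.752, the 5′ to 3′ ratio 0.981 in Xrn1-TAP and 1.29 in Dcp2-TAP, the odds ratio of Dcp2-TAP to Lsm1-TAP 0.828, and Lsm1-TAP had 36 called windows and an upstream to downstream ratio of 0.928.

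With the genes moved 30 bp up, body folds were 6.39 with Xrn1-TAP, 5.78 with Dcp2-TAP and 6.21 with Lsm1-TAP, inward shares 49.7%, 46.5%, 45.9% and, in no-TAP, 40.5%, and outward folds 6.43, 6.18, 6.71 and 5.87. The 5′ to 3′ ratio was 1.05 in Xrn1-TAP and 0.850 in Lsm1-TAP, the odds ratios 1.06 (Xrn1-TAP to Dcp2-TAP), 1.24 (Xrn1-TAP to Lsm1-TAP) and 1.17 (Dcp2-TAP to Lsm1-TAP), the 5′ sense shares 46.9% in Xrn1-TAP and 49.3% in Dcp2-TAP, and the 3′ sense shares 56.2% in Dcp2-TAP and 60.9% in Lsm1-TAP. With the genes moved 30 bp down, body folds were 6.67, 5.89 and 6.28, inward shares 42.1%, 53.2%, 48.2% and, in no-TAP, 31.4%, and outward folds 7.73, 5.51, 6.51 and 6.40. The 5′ to 3′ ratio was 1.71 in Xrn1-TAP and 0.872 in Lsm1-TAP, and the odds ratios 1.70 (Xrn1-TAP to Dcp2-TAP), 1.96 (Xrn1-TAP to Lsm1-TAP), 1.15 (Dcp2-TAP to Lsm1-TAP) and 0.655 (Lsm1-TAP to no-TAP). The 5′ sense share was 43.1% in Xrn1-TAP, the 3′ sense shares 59.7% in Xrn1-TAP, 58.6% with Lsm1-TAP and 66.7% in no-TAP, and the downstream share of Xrn1-TAP 1.01 times that of Dcp2-TAP. The whole strand pattern within bodies thus needs placement to better than 30 bp.

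In genes clear of RNA genes and coding upstream regions, the body fold was 7.45 in Dcp2-TAP, the outward fold 5.41 in Xrn1-TAP, upstream over downstream 0.961, 0.882 and 0.875 in the TAP libraries, and 48, 39, 40 and, in no-TAP, 12 of 137 windows were called. In genes of at most 95 bp the inward share was 80.3% in Xrn1-TAP and 76.7% in Lsm1-TAP. With positions within 10 bp merged, body folds were 7.16 in Xrn1-TAP and 5.76 in Dcp2-TAP. Flanks of 100 bp gave 106 called windows in Dcp2-TAP, a fold limit of 3 gave 109 in Dcp2-TAP and 116 in Lsm1-TAP, a limit of 6 gave 25, 22 and 20 in the 3 TAP libraries, and ribosomal DNA kept in the totals gave 44 in Lsm1-TAP. These called windows at other settings are given without a background share. The 45 body positions of no-TAP limit every ratio to the control.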

Other observations

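The 16 tRNA genes of chromosome XI entered no comparison above. With the gene table in place their bodies held 3 positions with Xrn1-TAP, 10 with Dcp2-TAP, 11 with Lsm1-TAP and 2 with no-TAP, or 1.97, 2.78, 5.54 and 5.21 times an even spread. With the table moved by -370 bp, a lag chosen on these positions, they held 22, 30, 15 and 1, or 14.5, 8.33, 7.56 and 2.60 times. Since the lag was picked to fill them, these values are a description only.

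The window fold differed between chromosomes within a library. Among the 14 chromosomes with at least 10 tRNA genes it ran between 1.34 (IX) and 4.19 (XV) in Xrn1-TAP, between 2.20 (VI) and 4.07 (V) in Dcp2-TAP, between 1.58 (VIII) and 4.40 (IX) in Lsm1-TAP and between 1.43 (XV) and 6.11 (V) in no-TAP. Chromosome IX was thus lowest in Xrn1-TAP and highest in Lsm1-TAP, and chromosome XV highest in Xrn1-TAP and lowest in no-TAP. The low values rested on few positions, 9 in Xrn1-TAP on IX (0.614 to 2.55) and 5 in no-TAP on XV (0.466 to 3.35). The intervals of the high values were 3.15 to 6.00 in Lsm1-TAP on IX and 3.17 to 5.43 in Xrn1-TAP on XV. Chromosome V, which holds YNCE0010W and YNCE0005W, was highest in Dcp2-TAP and no-TAP.

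Within a gene, antisense positions lay downstream of sense positions in 66.1% of 112 pairs in Xrn1-TAP, 70.2% of 768 pairs in Dcp2-TAP and 72.2% of 180 pairs in Lsm1-TAP. The median distance, with antisense upstream of sense counted as negative, came to 27 bp for pairs of Xrn1-TAP, 35 bp for those of Dcp2-TAP and 33 bp for those of Lsm1-TAP. No-TAP had 5 such pairs, too few to describe.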
